A study of Mus musculus with 8 samples.

Results

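CpG-dense stretches of the genome that are nearly free of DNA methylation in liver were followed across mice on a normal diet and mice on a steatohepatitis-inducing diet. They were chosen by their own measured level: 1 kb windows on chromosomes 1 to 4, chromosome 5 as far as the table held here reaches, and chromosomes 10 to 19, with at least 80 rows in the methylation table and a mean below 10% over all rows and all 8 libraries. A row is 1 cytosine of a CpG on 1 strand, so 80 rows are 40 CpGs. Of 1804496 windows with any row, 16481 had at least 80 rows, and 11562 of these met the rule, holding 1608891 rows. The rule read the mean of both groups together and no contrast between them, so the low level is given as a description and the difference between the groups can be tested. The cap on that mean also limits how far the groups of a member can differ. A window raised in NASH enough to pass 10% over all libraries is not a member.

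The data are whole-genome bisulfite libraries of liver DNA from male C57BL/6J mice, an inbred strain of wild-type genotype, bought at 8 weeks of age and fed for 28 weeks. The 4 libraries titled NASH (nonalcoholic steatohepatitis) come from mice whose diet was rich in fat, cholesterol and fructose. The 4 titled WT come from mice on a normal diet, and are called ND here as in the table's columns. Whole liver was used, so every level is an average over hepatocytes and the other liver cells, and a change in the mix of cells cannot be told apart from a change within cells. In the labels, samples titled WT have NASH as treatment and the reverse. The grouping by title, which is also that of the column names, was followed; were the treatment entries right instead, every higher and lower below would be reversed. Nothing in the labels ties each library to a mouse of its own, so p-values measure only the spread between these 8 libraries, which may be technical.

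Most CpGs of a mammalian genome are methylated in most cells, and the exceptions are CpG islands, short CpG-rich stretches that usually hold gene starts. An unmethylated island is permissive for transcription, while dense methylation of an island is associated with stable silencing. Islands of developmental regulators are commonly held by Polycomb complexes, and gain of methylation at islands is a known feature of ageing tissues and tumours. The edges of an island, its shores, are where levels climb back to those of the surrounding genome.

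The windows carried the marks of such islands. Their share of gene starts was set beside that of all tested windows and not beside other CpG-dense windows. A gene start from the RefSeq table (GRCm38.p6, the assembly behind mm10) lay in 5847 of the 11108 windows outside chromosome 18, or 52.6%, against 1.26% of all tested windows there; the promoter table used holds no start on chromosome 18, which has the other 454 windows. In all, 4977 windows overlapped a gene and held no listed start, and 369 had their nearest listed start within 10 kb. The last 369 had neither an overlapping gene, pseudogenes aside, nor a listed start within 10 kb, and were given no gene. Windows on chromosome 18 are among the 4977 or the last 369, whether or not they hold a start. Of 11638 protein-coding genes with a listed start on these chromosomes, 5714 (49.1%) had a start in one of the windows, against 750 of 6895 lncRNA genes (10.9%). Starts on both strands fell in 829 windows. The windows formed 8653 stretches of adjacent members, of which 6219 were a single window. The longest ran over 8 windows, chr11:120230000-120237999, across Bahcc1, which encodes a chromatin-associated protein.

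Promoters at the windows, taken as the 250 bases before and 50 after a start with 1 promoter per protein-coding gene, differed in letters from the rest. The 5468 promoters with a start in a window had a median of 25 CpGs and 64.7% GC. The other 6170 had 5 CpGs and 50.3% GC, a contrast that follows from choosing windows by CpG number. The GC box letters GGGCGG, read on either strand, stood in 74.7% of the first and 24.8% of the second, and in 48.2% of all. The letters TATAAA on either strand stood in 5.56% against 19.4%, with 12.9% over all. CCAAT, on either strand, was about as common in both (37.4% and 39.4%, with 38.4% over all), and TGACGTCA was found in 3.53% and 1.22% (2.30% over all). GGGCGG and TGACGTCA each hold a CpG and TATAAA holds none, so choosing windows by CpG number favours these contrasts too. A match is a description of letters and not a bound site.

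Sequences are shown for the gene starts in the windows with the largest differences among those listed by smallest p further on. They are RefSeq promoters of GRCm38.p6 in the direction of the gene, 5′ to 3′. Capitals mark CpGs whose level, averaged over both strands, differed by at least 5 percentage points in the direction of the whole window; all other bases are in lower case. 4930442E04Rik (a lncRNA, plus strand, chr19:59171531-59171830), Cdh7 (plus strand, chr1:109982650-109982949), Acot12 (plus strand, chr13:91741271-91741570), 4833422C13Rik (a lncRNA, minus strand, chr13:91741823-91742122) and Epha6 (minus strand, chr16:60605482-60605781) belong to windows that were higher in NASH, and Bspry (plus strand, chr4:62479812-62480111) to a window that was lower.
4930442E04Rik: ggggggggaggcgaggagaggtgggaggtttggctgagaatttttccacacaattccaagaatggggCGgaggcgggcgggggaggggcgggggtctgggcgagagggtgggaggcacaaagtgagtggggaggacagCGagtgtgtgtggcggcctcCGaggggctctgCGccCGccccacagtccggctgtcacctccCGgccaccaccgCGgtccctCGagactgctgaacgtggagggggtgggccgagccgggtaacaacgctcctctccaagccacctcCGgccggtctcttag
Cdh7: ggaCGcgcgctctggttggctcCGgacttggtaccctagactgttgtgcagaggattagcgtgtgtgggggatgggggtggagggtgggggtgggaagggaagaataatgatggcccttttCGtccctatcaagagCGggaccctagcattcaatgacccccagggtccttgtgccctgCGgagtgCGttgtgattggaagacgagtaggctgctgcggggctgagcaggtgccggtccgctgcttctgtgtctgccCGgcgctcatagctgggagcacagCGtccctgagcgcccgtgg
Acot12: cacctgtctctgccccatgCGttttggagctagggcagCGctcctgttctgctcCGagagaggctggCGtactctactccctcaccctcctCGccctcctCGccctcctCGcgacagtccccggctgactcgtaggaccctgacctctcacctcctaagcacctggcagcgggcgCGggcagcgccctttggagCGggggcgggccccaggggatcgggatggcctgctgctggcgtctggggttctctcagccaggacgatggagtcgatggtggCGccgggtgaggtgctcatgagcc
4833422C13Rik: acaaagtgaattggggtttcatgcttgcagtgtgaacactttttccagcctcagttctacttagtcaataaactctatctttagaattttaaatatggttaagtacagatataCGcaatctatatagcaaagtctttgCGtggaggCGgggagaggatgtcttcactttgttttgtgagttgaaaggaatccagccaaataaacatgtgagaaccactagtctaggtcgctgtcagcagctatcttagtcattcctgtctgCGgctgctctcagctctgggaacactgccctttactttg
Epha6: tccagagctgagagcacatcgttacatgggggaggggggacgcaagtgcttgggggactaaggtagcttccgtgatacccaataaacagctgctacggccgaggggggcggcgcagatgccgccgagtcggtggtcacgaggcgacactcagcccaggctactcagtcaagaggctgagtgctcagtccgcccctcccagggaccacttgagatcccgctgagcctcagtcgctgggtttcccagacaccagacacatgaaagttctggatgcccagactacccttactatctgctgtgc
Bspry: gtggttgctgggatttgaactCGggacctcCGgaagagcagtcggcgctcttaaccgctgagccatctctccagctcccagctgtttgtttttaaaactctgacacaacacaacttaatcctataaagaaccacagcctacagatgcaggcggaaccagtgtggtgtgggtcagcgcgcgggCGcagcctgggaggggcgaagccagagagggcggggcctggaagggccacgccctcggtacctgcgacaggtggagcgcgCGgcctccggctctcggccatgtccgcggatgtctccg

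Capitals covered 9 of 22 CpGs in the promoter of 4930442E04Rik, 8 of 18 in Cdh7, 10 of 22 in Acot12 and 4 of 5 in 4833422C13Rik. In the 4930442E04Rik promoter the groups overlapped (7.78% ± 3.52 in NASH, SD, n = 4, and 4.38% ± 3.16 in ND), as they did in that of 4833422C13Rik (18% ± 7.90 and 6.94% ± 6.08), where ND2 read 15.7%. The Acot12 promoter averaged 8.31% ± 0.845 (SD, n = 4) in NASH and 3.42% ± 2.13 in ND. That of Cdh7 averaged 8.11% ± 1.97 and 2.52% ± 2.52. In Epha6 no promoter CpG differed by 5 points in either direction, and the promoter averaged 2.90% ± 3.11 and 2.50% ± 2.82, so the difference of its window came from CpGs outside the 300 bases. In Bspry 4 of 23 CpGs were lower and 3 were higher, and the promoter averaged 3.27% ± 3.77 and 3.51% ± 1.55. Only 113 of its 300 bases lie in the window, which extends downstream into the gene.

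As a check of the tissue, start windows of hepatocyte genes were low to intermediate and those of germline genes were high. Alb was at 40.7% ± 8.62 in ND and 46.2% ± 5.26 in NASH, and Apob at 32.5% ± 2.86 and 39.3% ± 8.88. Apoa2 was at 16.8% ± 7.70 and 39.4% ± 5.02 at one listed start and 1.81% ± 1.08 and 5.82% ± 2.35 at another. Serpina1a was at 23.3% ± 2.56 and 37.2% ± 6.05. The germline genes Ddx4, Sycp1, Mael and Dazl lay at 63.9% to 89.5% in ND and 69.5% to 91.0% in NASH. All 5 hepatocyte start windows had the higher mean in NASH, and so did those of Ddx4, Sycp1, Mael and Dazl. The part of this shift, or of the cell mix, in the results below was not tested.

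Within the windows the level was low throughout, with a median of 2.40% over windows and a central range of 1.23% to 4.37% (25th to 75th percentile). Windows with more CpGs were lower: windows of 80 to 99 rows averaged 4.20% ± 0.126 in NASH and 4.22% ± 0.296 in ND, and windows of 150 or more rows 2.12% ± 0.0932 and 2.27% ± 0.399. Edge windows, with at least 1 of the 2 neighbouring windows at 50% or more, numbered 5629 and averaged 3.61% ± 0.126 and 3.78% ± 0.346. Interior windows, with both neighbours below 10%, numbered 1595 and averaged 2.20% ± 0.140 and 2.30% ± 0.344. Windows with a gene start averaged 2.61% ± 0.104 and 2.75% ± 0.351, and those without one 3.49% ± 0.120 and 3.59% ± 0.316. The order edge above interior, and no start above start, was the same in each of the 8 libraries.

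Values just inside the threshold came from windows in Lmna, Pgm2 and Whrn. The Whrn window, for instance, read 10.5%, 7.31%, 9.24% and 6.91% in NASH and 11.6%, 11.5%, 11.2% and 11.5% in ND. Just outside lay windows in Cdk5r1 and Cygb and at the start of Pigo. The Pigo window read 16.7%, 10.4%, 11.6% and 8.15% in NASH and 7.94%, 7.11%, 6.39% and 11.9% in ND. Windows near the threshold thus include libraries above and below 10%.

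Some members may be low because they were not read. All 8 libraries were exactly 0 throughout 161 windows, and 265 windows had no level strictly between 0 and 100 in any library. The table lists every CpG of the promoters checked, so a position without reads can appear as 0. Fewer than 1% of levels lay strictly between 0 and 100 in 444 windows, and 11118 windows are left without those.

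**Figure D1:**
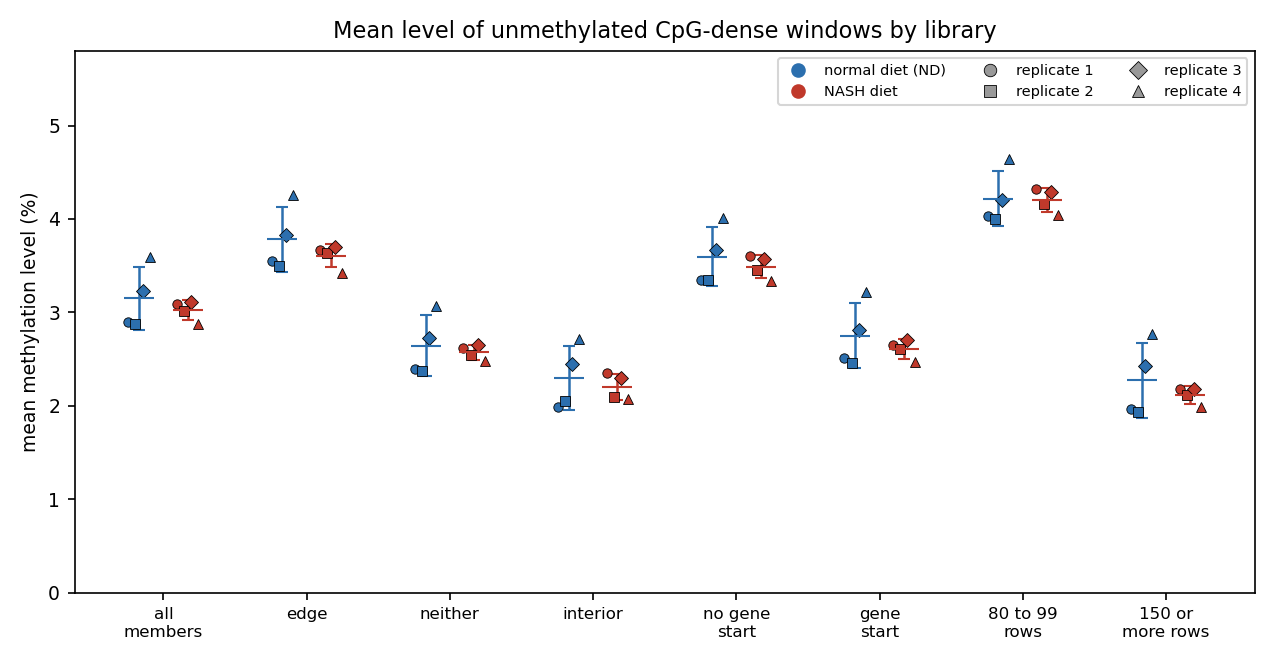
Mean methylation level (%) over classes of unmethylated CpG-dense windows; each symbol is 1 library, bars are the group mean ± SD of 4 libraries, blue for normal diet and red for NASH diet. In every class plotted the groups overlap, with ND4 the highest library (3.60% over all windows).

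No general gain of methylation was detected. Over all 11562 windows, the NASH libraries averaged 3.10%, 3.01%, 3.11% and 2.88%, and the ND libraries 2.90%, 2.88%, 3.23% and 3.60%. The groups overlap, and ND3 and ND4 stand above ND1 and ND2. The group means were 3.03% ± 0.106 and 3.15% ± 0.337 (SD, n = 4), a difference of -0.124 points (two-sided exact permutation test over 70 assignments, p = 0.629, adjusted over the 3 mean comparisons p = 0.629). Without ND4 the difference was 0.0246 points, and without ND3 and ND4 it was 0.136 points (exact p = 0.2), so its sign rests on those libraries. The median difference over windows was -0.0406 points, beside -0.633 over all 1609811 tested windows, and 46.8% of the members were higher in NASH, beside 41.5% of all tested windows.

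Neither position classes nor gene starts separated the diets. Edge minus interior was 1.32, 1.54, 1.41 and 1.35 points in NASH and 1.56, 1.45, 1.37 and 1.54 points in ND (difference of the means -0.0759 points, two-sided exact permutation p = 0.257, adjusted p = 0.386). Windows with a gene start minus those without were at -0.949, -0.854, -0.860 and -0.870 points in NASH and -0.833, -0.890, -0.854 and -0.786 points in ND (difference -0.0427 points, exact permutation p = 0.257, adjusted p = 0.386). The groups overlap in both measures. Chromosome by chromosome, 14 of the 15 means were lower in NASH, from -0.213 points on chromosome 17 to 0.0767 points on chromosome 13, where the NASH mean was higher; ND4 enters each of them.

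Window by window, limma was run on the mean levels of all 1609811 windows with at least 6 rows, with Benjamini-Hochberg adjustment. At an adjusted p under 0.05 none of the 11562 members was called in either direction; over all tested windows 6 were called, or 0.000373%. At an unadjusted p under 0.05, 370 members (3.20%) were higher in NASH, beside 4.33% of all tested windows, and 421 (3.64%) were lower, beside 6.58%. Every NASH library was above every ND library in 233 members (2.02%), against 2.78% of all tested windows, and below in 273 (2.36%), against 3.71%. On this scale the members' shares lie below the background in each direction. That depends on the scale. Both directions together, 6.84% of members and 10.9% of all windows had an unadjusted p under 0.05. On the logit scale the shares were 11.5% and 11.2%, and with every level of 0 left out 10.7% and 10.8%. With no trend in limma's prior variance they were 0.891% and 11.3%. Taken on each strand alone, 33 members (0.285%) were higher at an unadjusted p under 0.05 on both strands, beside 0.817% of all windows, and 30 (0.259%) were lower, beside 0.634%. With ND3 and ND4 left out, 264 (2.28%) were higher at an unadjusted p under 0.05 beside 4.2% of all windows, and 564 (4.88%) lower beside 3.97%. The lower share then exceeds the background, and 4 members were called lower with an adjusted p under 0.05, which are named further on.

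Among the 370 higher windows 41.4% held a gene start and 44.9% were edges, and among the 421 lower ones 43% and 59.4%, where all members had 50.6% and 48.7%. These are shares with no test, and windows on chromosome 18 count as holding no start.

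The differences were small, which the cap of 10% on the mean over all libraries favours. The median standard error of a window's difference was 0.816 points, and 58.9% of windows differed by less than 1 point. A difference of 5 points or more was reached by 88 windows upward and 112 downward. In 46 of the 88 and 62 of the 112, exactly 1 library stood at least 8 points above the window's median. Only windows with at least 1% of levels strictly between 0 and 100 could enter that count. The groups did not overlap in 19 of the 88 and in 19 of the 112. A large difference favours such separation, and these counts were not made for all tested windows with differences of that size. CpG-dense windows at intermediate level, 2822 windows from 10% to 50%, held larger shares at an unadjusted p under 0.05 (7.05% higher, 8.36% lower), as counts with no test of the difference from the members.

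**Figure D2:**
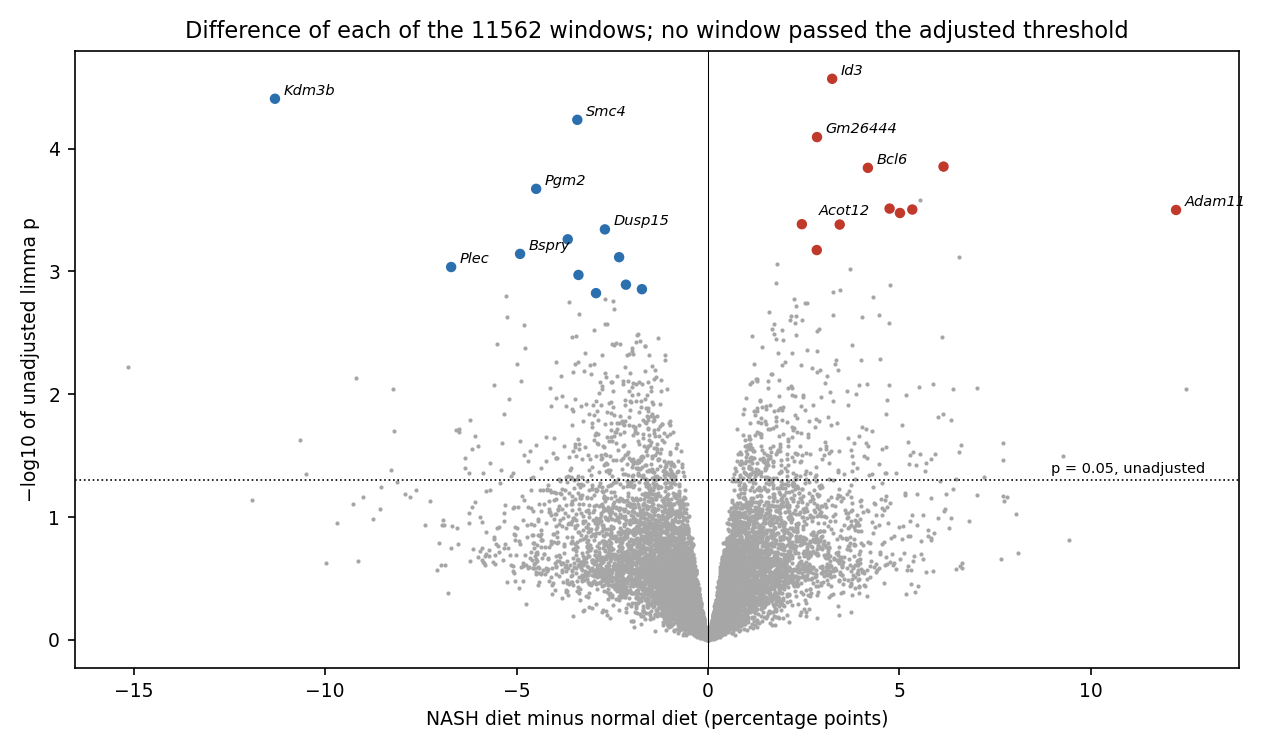
Difference between diets (NASH minus ND, percentage points) against −log10 of the unadjusted limma p for the 11562 windows; coloured points are the 23 described windows with the smallest p in either direction, some of them named by gene. Id3 is the highest point, at an adjusted p of 0.0785, and Adam11 and Kdm3b lie farthest out among the coloured points.

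Since none was called, the 12 windows with the smallest p in each direction were examined, none of which passed the adjusted threshold, and 23 of them are described. Among the 12 that were higher in NASH, differences ran from 2.45 to 12.2 points and limma adjusted p from 0.0785 to 0.14. In each of the 12 windows every NASH library lay above every ND library, which the choice by smallest p favours. A gene start stood in 6, 4 lay inside a gene, and both strands alone had an unadjusted p under 0.05 in 7. The choice by smallest p favours that strand count too, as it used the rows of both strands. Edge windows made up 6 of the 12 and interior windows 2.

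The smallest p belonged to the window chr4:136148000-136148999 (mm10), 4177 bases from the nearest gene start, that of Id3, an inhibitor of basic helix-loop-helix transcription factors. It read 8.49%, 7.44%, 7.98% and 7.42% in NASH and 4.41%, 4.75%, 4.72% and 4.48% in ND. Both groups were tight, at 7.83% ± 0.509 and 4.59% ± 0.169, with a difference of 3.25 points (SE 0.407, adjusted p = 0.0785). The difference was 3.30 points on the plus strand and 3.19 on the minus strand. It came from few CpGs: 9 of 50 differed by at least 5 points upward and 2 downward, and 5 CpGs held 65.8% of the sum. The largest, at the right end of the window, was at 53.3% ± 15.1 in NASH and 22.3% ± 6.50 in ND. The neighbour on that side was at 69.1%, so this is the border of the unmethylated stretch. With every level of 0 left out, the difference of this window was -0.470 points.

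The largest of the 12 differences was within Adam11, which encodes a catalytically inactive member of the ADAM family found mainly in neurons. The window chr11:102774000-102774999 read 9.30%, 18.7%, 18.5% and 15.9% in NASH and 0.828%, 5.68%, 5.39% and 1.63% in ND. NASH1 was the lowest NASH library and still stood above ND2, the highest ND library. The means were 15.6% ± 4.39 and 3.38% ± 2.51 (12.2 points, SE 2.13, adjusted p = 0.119). Here the difference was spread: 46 of 66 CpGs were at least 5 points higher and 1 lower, on both strands (13.5 and 11 points). Its neighbours were at 79.9% and 71.7%, so the window is an unmethylated island of a single window.

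Bcl6, which encodes a transcriptional repressor known from B cells, held a window at chr16:23983000-23983999. The levels were 6.06%, 7.19%, 6.98% and 9.07% in NASH and 3.41%, 2.43%, 3.69% and 3.06% in ND (difference 4.18 points, SE 0.654, adjusted p = 0.104). In it 8 of 40 CpGs were at least 5 points higher and 4 lower, and 5 CpGs held 95.3% of the difference.

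Acot12, which encodes an acyl-CoA thioesterase abundant in liver, starts in chr13:91741000-91741999 together with the lncRNA 4833422C13Rik. NASH libraries stood at 8.39%, 7.84%, 7.34% and 9.52%, and ND libraries at 3.95%, 5.56%, 2.22% and 2.38% (4.75 points, SE 0.826, adjusted p = 0.119). Both neighbours were higher too, by 13.8 points on the left (unadjusted p = 0.0344) and 21.5 points on the right (unadjusted p = 0.000555). The promoter CpGs in capitals above thus lie in a stretch of at least 3 windows that were higher in NASH.

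The start window of Cdh7, a cadherin, chr1:109982000-109982999, read 6.18%, 10.0%, 6.75% and 9.39% in NASH and 2.93%, 3.21%, 3.73% and 2.38% in ND (5.02 points, adjusted p = 0.12). The start window of Epha6, an ephrin receptor, chr16:60605000-60605999, read 6.37%, 6.59%, 4.47% and 5.76% against 2.62%, 3.22%, 1.06% and 2.52% (3.44 points, adjusted p = 0.126). Both leaned on the minus strand, by 8.17 against 1.87 points in Cdh7 and 5.48 against 1.41 points in Epha6.

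Of 5 further windows, 4 lie at or in 4930442E04Rik (5.34 points), Gm26444 (2.85 points), Txndc15 (2.45 points) and Gm30110 (2.84 points), and 1 on chromosome 14 was given no gene (6.16 points). Txndc15 encodes a thioredoxin-domain protein, and 4930442E04Rik and Gm30110 are non-coding genes. The window of 4930442E04Rik, chr19:59171000-59171999, read 10.8%, 8.41%, 9.93% and 8.28% in NASH and 2.83%, 3.05%, 3.67% and 6.50% in ND. The adjusted p of these 5 lay between 0.0972 and 0.14.

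**Figure D3:**
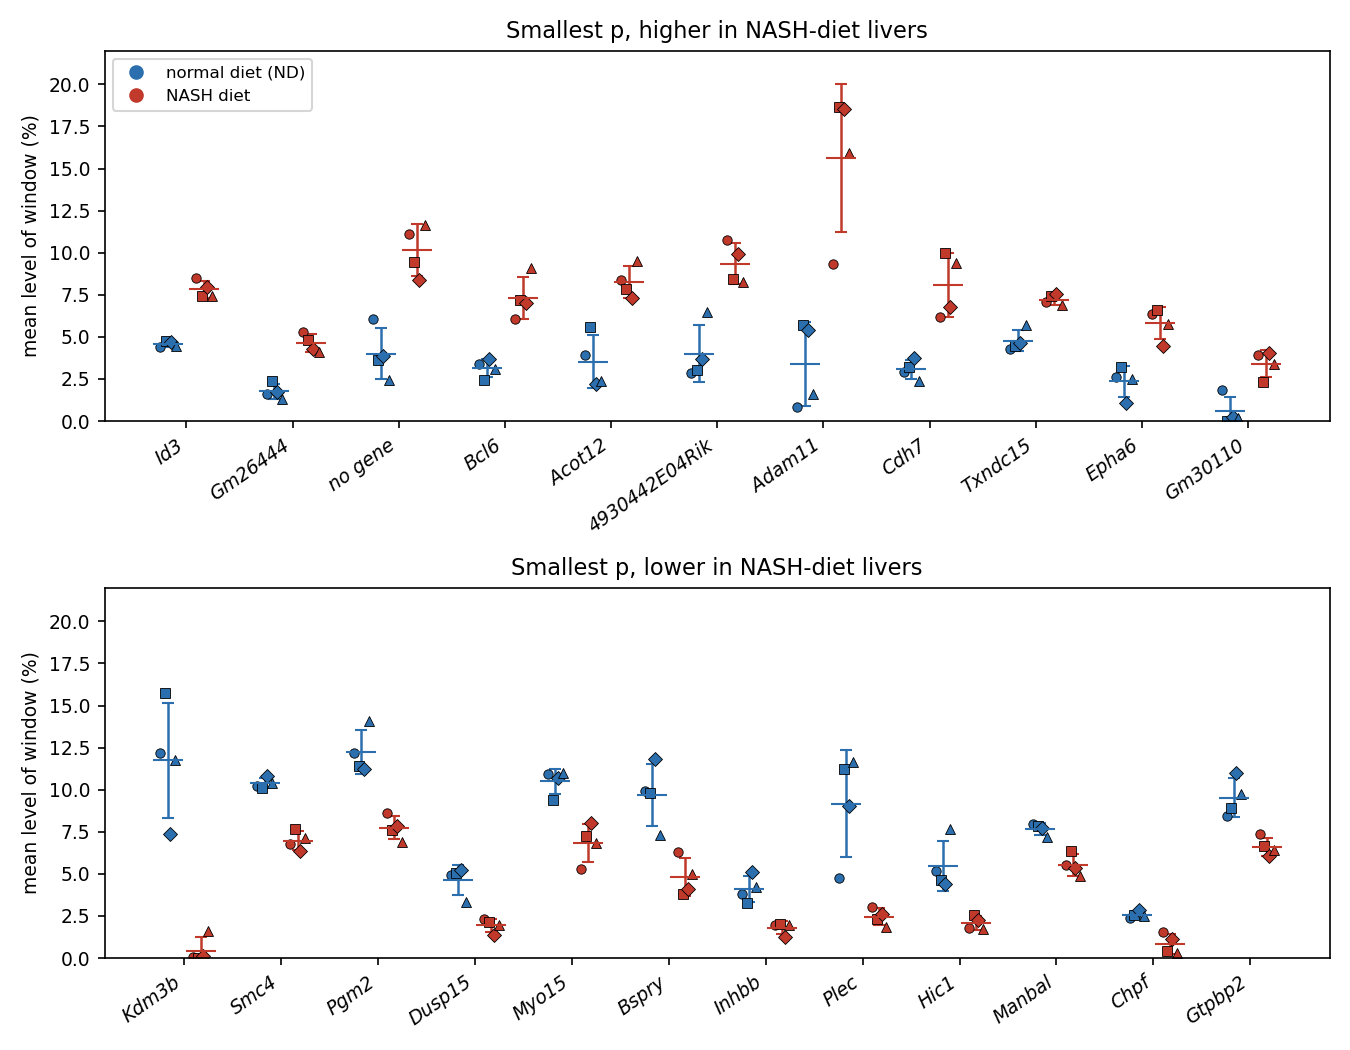
Mean level (%) of the 23 described windows with the smallest p (11 higher, 12 lower in NASH), one symbol per library (circle, square, diamond and triangle for replicates 1 to 4) with group mean ± SD (n = 4); blue is normal diet and red is NASH diet. The groups are separate in all 23 windows, with the largest differences in Adam11 (12.2 points) and Kdm3b (-11.3 points).

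Among the 12 windows that were lower in NASH, sizes ran from 1.72 to 11.3 points and limma adjusted p from 0.0848 to 0.169. The largest lay in Kdm3b, which encodes a demethylase of histone H3 lysine 9, at chr18:34777000-34777999. It read 0.0469%, 0%, 0.103% and 1.63% in NASH and 12.2%, 15.7%, 7.39% and 11.8% in ND (-11.3 points, SE 1.49, adjusted p = 0.0848). All 4 ND libraries carried methylation that the NASH libraries all but lacked. It was seen at 55 of 97 CpGs by at least 5 points and at none the other way, on both strands (-5.69 and -16.9 points). The neighbours, at 18.2% and 7.04%, differed by -0.548 and 0.345 points, so they did not share the difference. No start is listed on chromosome 18, so whether the Kdm3b window holds one is unknown. A position without reads can appear as 0, and whether its positions were read in the NASH libraries was not tested.

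Plec, which encodes the cytoskeletal linker plectin, had the next largest difference. Its window chr15:76198000-76198999 read 3.04%, 2.34%, 2.60% and 1.84% in NASH and 4.73%, 11.2%, 9.03% and 11.7% in ND (-6.71 points, SE 1.37, adjusted p = 0.15). ND1 was nearest to the NASH libraries. The left neighbour, at 44.6%, was also lower, by -11.2 points (unadjusted p = 0.0273).

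In Bspry, which encodes a B-box and SPRY domain protein, chr4:62480000-62480999 read 6.30%, 3.78%, 4.11% and 5.02% in NASH and 9.91%, 9.78%, 11.8% and 7.32% in ND (-4.91 points, SE 0.965, adjusted p = 0.142). The right neighbour, inside the gene at 60.9%, was lower by -28.0 points (unadjusted p = 2.72e-06). Manbal had a like arrangement, with a small difference in the start window (5.53% ± 0.637 and 7.67% ± 0.344, -2.14 points, adjusted p = 0.163) beside -13.7 points in the left neighbour (unadjusted p = 0.000349). At an unadjusted p under 0.05, a neighbour differed in the same direction in 5 of the 12 lower windows. The same held for 4 of the 12 higher ones, and either neighbour could count. In the first kilobase beyond the unmethylated stretches, 10.2% of all windows were higher and 7.08% lower at that p. The same count was not made over all members.

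Pgm2, a phosphoglucomutase gene, and Smc4, which encodes a condensin subunit, held border windows with tight groups. Pgm2 at chr5:64093000-64093999 averaged 7.74% ± 0.691 and 12.2% ± 1.30 (-4.49 points, adjusted p = 0.111). Smc4 at chr3:69006000-69006999 averaged 6.98% ± 0.558 and 10.4% ± 0.321 (-3.41 points, adjusted p = 0.0914). Inhbb, which encodes a subunit of activin B and inhibin B, had its start window at 1.79% ± 0.381 and 4.11% ± 0.786 (-2.32 points, adjusted p = 0.145). Hic1, a transcriptional repressor whose island is often methylated in tumours, was nearest to a window 1744 bases from its start, at 2.08% ± 0.408 and 5.46% ± 1.49 (-3.38 points, adjusted p = 0.155). The others lay in Dusp15, Myo15, Chpf and Gtpbp2, from -3.66 to -1.72 points; that of Myo15 was 0.420 points with every level of 0 left out.

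Some genes had more than 1 window at an unadjusted p under 0.05 in the same direction, 10 genes upward and 8 downward of 2604 genes with at least 2 member windows. Sfmbt2, a Polycomb-group gene that is imprinted in placenta, was the only one with 3, of its 4 windows, at chr2:10372000-10374999. Those 3 averaged 1.75%, 0.977%, 1.84% and 1.68% in NASH and 2.47%, 2.74%, 4.4% and 2.95% in ND. Each difference was under 2 points (-1.89 to -1.17), with a smallest adjusted p of 0.273. Upward, both windows of Fam8a1 were higher, by 1.18 and 2.59 points (smallest adjusted p = 0.178), and both windows of Nrbf2, whose product takes part in autophagy, by 2.10 and 2.47 points (smallest adjusted p = 0.289). These genes were picked after their values were seen, and their number has no test. Of all members, 3.20% were higher and 3.64% lower at an unadjusted p under 0.05. How many genes those shares alone would give was not computed.

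Lists of genes for 16 roles were read for their windows, and none of the windows in any list was called. The median difference of a list is to be read beside that of all members, -0.0406 points, and its counts at an unadjusted p under 0.05 beside the members' shares of 3.20% higher and 3.64% lower. Over the 16 lists the shares ran from 1.35% to 11.1% higher and from 0% to 9.09% lower, on 20 to 447 windows a list. Of the 36 hepatocyte transcription factors and nuclear receptors on these chromosomes, 26 had windows, 55 in all, with a median of 0.0816 points, 4 windows higher (7.27%) and 1 lower (1.82%) at an unadjusted p under 0.05. The smallest p there was at the start of Prox1, a homeobox factor of hepatocytes and lymphatic endothelium. Its window chr1:190170000-190170999 read 3.50%, 1.65%, 1.71% and 2.14% in NASH and 0.935%, 0.243%, 0.119% and 0% in ND (1.92 points, adjusted p = 0.204). Nr5a2, a nuclear receptor of bile acid and cholesterol metabolism, had 4.41% ± 0.676 and 5.83% ± 0.538 (-1.42 points, adjusted p = 0.332), with overlapping groups.

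For cholesterol synthesis and uptake 30 of 32 genes had 36 windows (median 0.234 points, 3 higher and 1 lower). Vldlr, a lipoprotein receptor, was lower at its start, at 1.14%, 2.52%, 1% and 0.5% in NASH and 3.71%, 6.26%, 3% and 5.61% in ND (-3.35 points, adjusted p = 0.188). Fdft1, squalene synthase, was at 4.61% ± 0.545 and 2.68% ± 0.918 (1.93 points, adjusted p = 0.246). For fatty acid and triglyceride synthesis 17 of 29 genes had 27 windows (median 0.0789 points, 3 higher and 1 lower). The start window of Gpam, the acyltransferase of the first step of triglyceride synthesis, stood at 3.45% ± 0.889 and 6.04% ± 1.59 (-2.59 points, adjusted p = 0.301). Acsl3, an acyl-CoA synthetase, differed by 1.63 points the other way (adjusted p = 0.304).

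For fatty acid oxidation 17 of 28 genes had 20 windows (median 0.108 points, 1 higher and none lower at an unadjusted p under 0.05). Slc27a2, a very-long-chain acyl-CoA synthetase and fatty acid transporter of liver, had the largest difference among the windows named from the lists. Its start window chr2:126553000-126553999 read 8.20%, 5.97%, 9.16% and 11.9% in NASH and 2.84%, 4.13%, 4.64% and 4.75% in ND (4.73 points, SE 1.14, adjusted p = 0.198). The groups did not overlap, and the strands differed by 3.30 and 6.15 points. In Cpt1a, the entry step of mitochondrial oxidation, the groups overlapped (-1.68 points, adjusted p = 0.507; -0.948 points without ND1).

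Developmental transcription factors and morphogens were the best covered list, with windows at 152 of the 158 genes on these chromosomes and 447 windows. Their level was above that of the whole set, with a median of 4.37% beside 2.40%. Their median difference was 0.00469 points, and 0.192 points against ND1 and ND2 alone. At an unadjusted p under 0.05, 24 windows were higher (5.37%) and 22 lower (4.92%). Tfap2b (2.29 points, adjusted p = 0.18) and a window 3305 bases from a start of Pax5 (2.90 points, adjusted p = 0.203) had the smallest p. For DNA methylation, demethylation and Polycomb genes 63 windows had a median of 0.217 points (4 higher, 2 lower). A window 5915 bases from Cbx8, a Polycomb subunit, was at 9.04% ± 1.13 and 5.58% ± 1.12 (3.45 points, adjusted p = 0.167).

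The lists with medians below that of all members were tumour suppressors and Wnt or SOCS inhibitors (66 windows, -0.258 points, 3 higher and 6 lower at an unadjusted p under 0.05) and stellate cell, matrix and TGF-beta genes (74 windows, -0.472 points, 1 higher and 3 lower). In the second, NASH libraries averaged 2.85%, 2.82%, 3% and 2.55%, and ND libraries 2.91%, 2.96%, 3.99% and 3.50%. ND3 and ND4 are the high libraries, and against ND1 and ND2 alone the median was -0.0446 points, where that of all members was 0.105 points. The tumour suppressor list was at -0.0299 points against the same libraries. Axin2, a negative regulator of Wnt signalling, was at 3.06% ± 0.622 and 5.16% ± 0.958 (-2.11 points, adjusted p = 0.233). Bambi, a decoy receptor of TGF-beta signalling, was at 3.01% ± 0.418 and 4.19% ± 0.646 (-1.19 points, adjusted p = 0.367). The Bambi window lies on chromosome 18, so whether it holds a start is unknown.

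Lists for other liver cell types had medians of 0.00921 points (leukocyte, 80 windows, 3 higher and 2 lower at an unadjusted p under 0.05), 0.383 points (endothelial, 36 windows, 3 and 1) and 0.238 points (cholangiocyte, 30 windows, 2 and 0). A window in Vegfa, the gene of an endothelial growth factor, was at 5.56%, 6.60%, 3.31% and 0.669% in NASH and 0.345%, 0.655%, 1.41% and 0.286% in ND, with overlapping groups (3.36 points, adjusted p = 0.334). Itgb4, an integrin of biliary epithelium, was at 9.63% ± 0.663 and 7.31% ± 1.48 (2.32 points, adjusted p = 0.327), and Prom1 at 4.67% ± 0.707 and 3.27% ± 0.797 (1.40 points, adjusted p = 0.388). The Itgb4 difference was -0.642 points on the minus strand alone and -1.20 points with every level of 0 left out. The remaining lists, ribosomal proteins (0.0975 points), circadian clock (0.189 points), innate immune and stress signalling (-0.0151 points), insulin, growth hormone and nutrient signalling (0.177 points) and endoplasmic reticulum stress (0.0814 points), had 1 or 2 windows higher and 0 to 3 lower at an unadjusted p under 0.05. Of these, the smallest p was in a window nearest to Rpl12 (3.90% ± 0.929 and 1.75% ± 0.446, 2.15 points, adjusted p = 0.194). Others named by the same rule were Eef2 (2.62 points), Npas2 (1.56 points), Rai1 (-1.34 points), Atf3 (-3.04 points), Ier3 (-3.36 points), Igfbp5 (-2.28 points), Pdia6 (1.78 points) and Atf4 (3.66 points, resting on NASH1 at 10.8%), with adjusted p from 0.269 to 0.545. Leaving out 1 library moved 4 of these by over 1.5 times: Ier3 was at -2.06 points without ND2, Igfbp5 at -1.38 without ND3, and Pdia6 at 1.15 and Atf4 at 1.45 without NASH1. The sign of the difference was not shared by both strands in Igfbp5, Atf3 and Atf4, and Rai1 was at 1.03 points with every level of 0 left out.

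Around the 6588 protein-coding starts in the windows, the level formed a deep trough, as the choice of windows by low level entails. It was 60.9% ± 0.358 in NASH and 60.9% ± 0.162 in ND at 1800 to 2000 bases upstream, 1.40% ± 0.0748 and 1.60% ± 0.326 in the 200 bases before the start, and 54.7% ± 0.282 and 54.3% ± 0.166 at 1800 to 2000 bases downstream. The trough is deepest within 200 bases of the start. The groups overlapped in every one of the 200-base bins. Differences ran from -0.201 points just before the start, where ND4 was the highest library at 2.07%, to 0.392 points at the downstream end.

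Outside the windows, the first kilobase beyond each stretch (17060 windows) averaged 39.3% ± 0.255 in NASH and 39.1% ± 0.230 in ND (0.198 points, exact permutation p = 0.343, adjusted over 5 distances p = 0.714). At an unadjusted p under 0.05, 10.2% of these shore windows were higher in NASH and 7.08% lower, where all tested windows had 4.33% and 6.58%. At 5 kb the shares were 8.18% and 6.54%. With ND3 and ND4 left out they were 8.05% and 4.99% at 1 kb and 6.58% and 4.55% at 5 kb, where all tested windows had 4.2% and 3.97%. None of the first-kilobase windows was called at an adjusted p under 0.05, and 1 was at 2 kb. The shares were not compared with windows of the same level and row number, and the part of these in the shares was not tested.

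**Figure D4:**
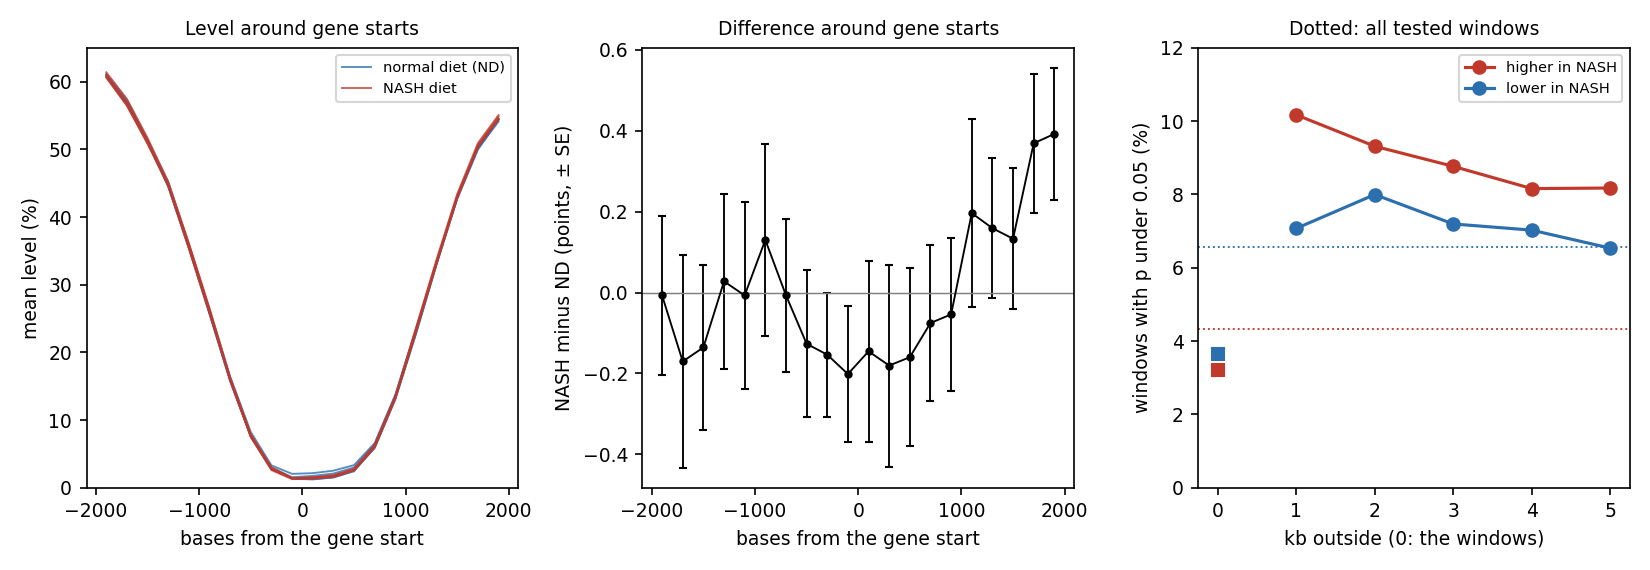
Left, level (%) in 200-base bins around 6588 protein-coding starts, 1 line per library; middle, NASH minus ND in the same bins (points, ± SE from the SDs of 4 and 4 libraries); right, share (%) of windows with an unadjusted p under 0.05 by distance from the stretches, with squares for the unmethylated windows and dotted lines for all tested windows. The libraries overlie one another in the trough, and the shares at 1 kb are 10.2% higher and 7.08% lower.

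Many windows were raised in 1 library only. In 1379 of the 11118 windows with at least 1% of levels between 0 and 100, exactly 1 library stood at least 8 points above the window's median over libraries, a threshold chosen after the data were seen. ND4 held 440 of these and ND3 held 219, against 63 in ND1 and 74 in ND2; the NASH libraries held 139, 179, 154 and 111. In 1094 (79.3%) at least 90% of the excess was on 1 strand, and in 148 each strand carried at least 25% of it. A further 130 windows had more than 1 such library. Over the 11118 windows, the differences between the diets on the plus and minus strands had a Pearson r of 0.0780, while the levels on the strands had r = 0.782, as a description across windows that share libraries.

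Named cases show both kinds. In Twist1, a regulator of mesenchyme, chr12:33958000-33958999 read 40.2% in ND4 and 0.980% to 3.48% in the other libraries, with an excess of 36.8 points on the plus strand and 40.2 on the minus strand. In Macir, ND1 read 26.8% where the others lay between 1.60% and 5.23%, also on both strands (20.8 and 28.2 points). In Man2a1, a Golgi mannosidase gene, ND3 read 29.5% with 57.3 points of excess on the minus strand and 1.04 on the plus strand. In Otub2, a deubiquitinase gene, NASH3 read 31.0% with 55.5 points on the plus strand and -0.951 on the minus strand. A mean over both strands therefore combines levels that can differ widely between strands in a single library.

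In the 4 windows called lower once ND3 and ND4 were left out (limma adjusted p from 0.00168 to 0.0254), ND1 and ND2 lay above all NASH libraries. In Sort1, which encodes the lipoprotein-sorting receptor sortilin, chr3:108284000-108284999 read 9.5%, 11%, 1.22% and 1.5% in ND1 to ND4 and 0.476% to 1% in NASH. In Ahr, the aryl hydrocarbon receptor gene, chr12:35534000-35534999 read 5.83%, 5.93%, 1.04% and 0.766% against 0% to 0.499%. A window on chromosome 11 that was given no gene read 25.4%, 22.1%, 8.20% and 4.92% against 0% in all 4 NASH libraries. One near Gm7735 read 11%, 9.76%, 0% and 13.4% against 0% to 1.22%. The windows on chromosome 11 and near Gm7735 belong to the 265 described earlier, where every level was either fully methylated or 0. A position without reads can appear as 0, and whether their positions were read was not tested. On the plus and minus strands the difference was -27.9 and -2.46 points on chromosome 11, and -4.88 and -11.6 points near Gm7735. With all 8 libraries the adjusted p of the 4 windows lay between 0.248 and 0.442. Leaving those libraries out was chosen after seeing the data.

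**Figure D5:**
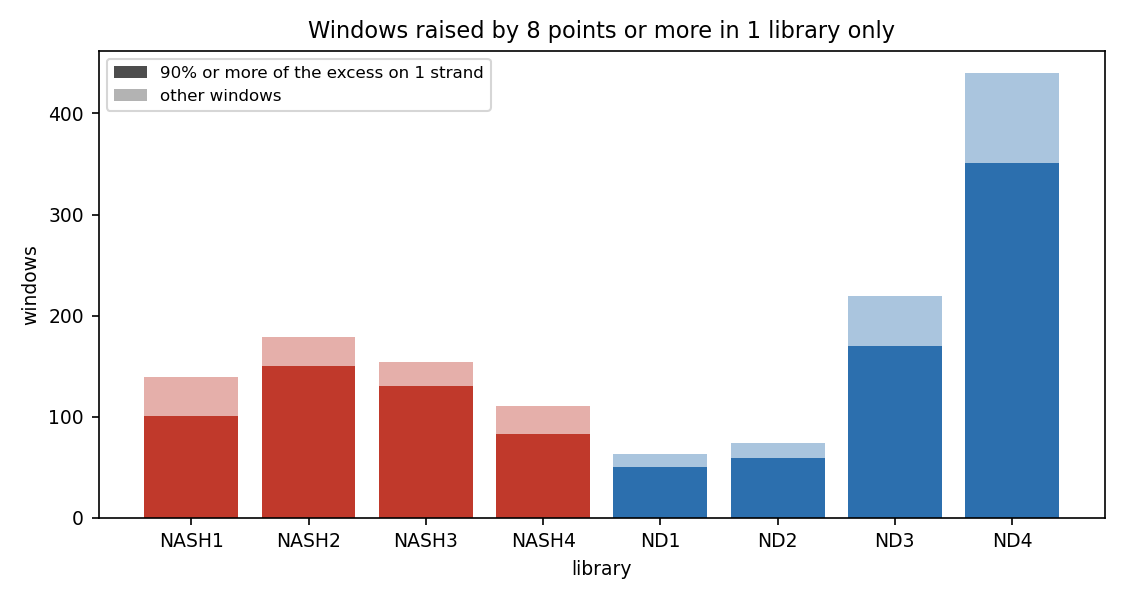
Number of windows in which exactly 1 library stood at least 8 points above the window's median, by that library; dark, windows with at least 90% of the excess on 1 strand, light, the others. ND4 has the most windows (440) and ND1 the fewest (63).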

How the data were processed

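Methylation of liver DNA was measured by whole-genome bisulfite sequencing in 8 libraries, after sonication, bisulfite treatment and library preparation, per the labels' protocols. The authors deposited 1 table of methylation levels in percent, with a row for each CpG cytosine on each strand. FastQC and the build mm10 come from the submitters' processing notes; aligner, methylation caller and filters: not given in the sources used here. That table holds no read counts, so depth is unknown and no interval was computed from reads. Of the table, 30729668 positions on 15 chromosomes were used, and 326824 positions on 85 other sequences and 1 incomplete line were left out. Other chromosomes, and chromosome 5 beyond position 117098872, were not analysed here.

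All 256194 CpGs in the promoters of the RefSeq table were found in the deposited table at 1 base above their 1-based position, with the other strand's row next to it; windows are given in the deposited positions. Levels were averaged over the rows of each 1 kb window. The window difference was tested with limma 3.58.1 in R 4.3.3 across all 1609811 windows with at least 6 rows (trend in the prior variance, Benjamini-Hochberg over all windows, adjusted p under 0.05); the script was tested on simulated data. Class means were compared with two-sided exact permutation tests over the 70 assignments, whose smallest p is 0.0286. A window was given to genes starting in it, else to genes it overlaps (pseudogenes aside), else to the nearest start within 10 kb, else to none. On chromosome 18, where no start is listed, only overlap could be used. The windows named are the 12 with the smallest p in each direction, the 2 with the smallest p from each of 16 gene lists, and the 3 on each side of the 10% threshold; others named were picked after their values were seen. Of the windows this rule chose, 3 are not reported here. The members, lists and tests were chosen with earlier results of these data known. Alternatives covered the scale, the prior, row and level thresholds, zeros, the replicate block and leaving out libraries; strand-wise rows, leaving out ND3 and ND4, and leaving out windows with few intermediate levels were added after seeing the data.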

Additional observations from a re-analysis of the deposited data

Results flagged for a closer look

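In each group of 4 libraries the highest or lowest value was compared with its neighbour in the named windows. A gap above Dixon's critical value as a share of the group's range was marked, which chance does in about 1 of 20 groups. It happened in 9 of 96 groups of the windows named by rule and in none of 10 groups of class means. A single high library stood out in Gm30110 (ND1 1.85%, next 0.269%), Kdm3b (NASH4 1.63%, next 0.103%), Cpt1a (NASH4 1.86%, next 0.422%), Npas2 (NASH1 3.44%, next 1.93%) and Prom1 (ND4 4.46%, next 2.99%). A single low library stood out in Dusp15 (ND4 3.33%, next 4.96%), Inhbb (NASH3 1.22%, next 1.96%), Npas2 (ND3 0.120%, next 0.810%) and Igfbp5 (NASH2 1.96%, next 2.37%).

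Windows listed for their single-library excess were picked for such a gap: Twist1 (ND4 40.2%, next 3.48%), Man2a1 (ND3 29.5%, next 1.04%), Klf3 (NASH3 29.1%, next 2.50%), a window on chromosome 15 given no gene (ND4 27.9%, next 1.49%), Otub2 (NASH3 31.0%, next 4.62%), Macir (ND1 26.8%, next 2.21%) and Usp53 (ND3 23.2%, next 1.17%). In Klf3 the ND group also had a single high library, ND1 at 1.39% (next 0.247%).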

How the results depend on the processing

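No member was called higher under any alternative run. Members called lower numbered 0 in all alternatives except 2: 1 with every zero left out (a window at the start of Slc29a3, adjusted p = 0.0457, with 4424 members left to test) and 4 with ND3 and ND4 left out. The mean difference of the members kept its negative sign in 18 of 20 alternatives, and leaving out each library gave -0.214 to 0.0246 points; it was positive without ND4 (0.0246) and without ND3 and ND4 (0.136), and lowest with every zero left out (-0.817). Edge minus interior kept its sign except with every zero left out (0.185 points), and gene start minus other except with every zero left out (0.101 points) and with medians over windows (0.0131 points). No p of these 3 comparisons fell under 0.05 (0.0571 to 1 over all alternatives). The sign flips over 4 pairs, and the assignments left without ND3 and ND4, are too few to reach 0.05, so those alternatives could not show it. Windows without overlap of the groups numbered 506 (233 and 273); leaving out each library gave 828 to 897, every zero left out gave 194, and leaving out ND3 and ND4 gave 1681, where fewer libraries make separation easier.

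With the replicate number as a replicate block (paired sign flips over 4 pairs), the mean difference was -0.124 points (exact p = 0.875), edge minus interior -0.0759 and gene start minus other -0.0427 points, and no member was called; the block changed no call. Deviations of same-numbered libraries from their group means correlated at -0.0485 to 0.0310 over windows. Most levels in the members are 0, so these values cannot tell whether the numbers pair the libraries. Members at an unadjusted p under 0.05 numbered 370 higher and 421 lower. With no trend in the prior variance they were 51 and 52 (0.891% in all, beside 11.3% of all windows). On the logit scale they were 618 and 717 (11.5% beside 11.2%). With every zero left out they were 181 and 292 of 4424 (10.7% beside 10.8%). Of 798 values of 48 named windows under alternatives, 790 kept direction and side of the threshold and none was called. The 8 reversals were, with every zero left out, Id3 (-0.470), Rai1 (1.03), Myo15 (0.420) and Itgb4 (-1.20), on the minus strand alone Igfbp5 (0.133), Atf3 (0.0252) and Itgb4 (-0.642), and on the plus strand alone Atf4 (-0.107); the cause was not tested. Read depth is unknown, and zeros made up 91.7% to 92.6% of the levels in the members.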
